A study of Mus musculus with 6 samples.

Results

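The 8 troponin genes of the mouse (Tnnt1, Tnnt2, Tnnt3, Tnni1, Tnni2, Tnni3, Tnnc1 and Tnnc2) were read in sorted bladder cells of newborn animals. Members were taken as every probe set, a group of short probes that reports on 1 transcript, whose platform annotation gave 1 gene symbol equal to a troponin gene. This gave 12 of 45037 probe sets other than controls, and 8 of the 18193 genes named in that way. Tnnt2 and Tnni2 had 3 probe sets each, and the other genes had 1. The animals were male FVB/N mice at postnatal day 2 that carried a pair of transgenes, EGFP under a promoter of smooth muscle gamma actin, the product of Actg2, and EYFP under one of smooth muscle alpha actin, the product of Acta2. Dissected bladder tissue was digested and sorted by fluorescence into cells with EGFP and no EYFP (single-positive, 3 arrays) and cells with both reporters (double-positive, 3 arrays). Both populations are labelled as detrusor, which is the bladder's muscle coat, and the samples as not pooled. The gate reads the activity of transgene promoters, which need not follow the endogenous genes.

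Troponin is the calcium switch of striated muscle. Troponin C binds calcium, troponin I holds actin and myosin apart while calcium is low, and troponin T ties the complex to tropomyosin along the actin filament. Each subunit has fast skeletal, slow skeletal or cardiac forms encoded by separate genes. Smooth muscle contraction is switched instead mainly by calmodulin and myosin light chain kinase, and troponin is not part of the textbook smooth muscle filament, although troponin T transcripts are known from some smooth muscles.

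Signal intensities were in arbitrary units and had been scaled to a common trimmed mean, with array medians from 147.1 to 199.8. Whether the 3 arrays of a group stem from different mice is not stated, so each p-value reflects the scatter among these arrays, which could be technical, and their number limits the precision. Over all probe sets, the Pearson correlation of the log2 signal ranged from 0.950 to 0.956 within the single-positive group, from 0.935 to 0.948 within the double-positive group and from 0.921 to 0.942 for arrays of different groups. Differences are double-positive minus single-positive on the scale of log2(signal + 25.042), which understates the change of dim probe sets. In bulk RNA of sorted cells, fewer cells that carry a transcript and less of it per cell cannot be told apart. The genes behind the reporters were read as a check: the Actg2 signal fell from 60131 ± 8405 to 10595 ± 3281 (SD, n = 3 each), and the brightest of 3 Acta2 probe sets gave 62346 ± 9277 and 59801 ± 11165. Of the other Acta2 probe sets, 1444105_at had a log2 difference of -4.31 (limma adjusted p = 0.000483) and 1456658_at one of -3.07 (adjusted p = 0.0765), so that the 3 probe sets disagree.

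Transcripts of all 3 troponin T genes fell in the double-positive cells, and no troponin gene rose. The cardiac-type gene Tnnt2 had a single-positive signal of 29145 ± 1992 and a double-positive signal of 1668 ± 997 (SD, n = 3 each), 17.5-fold lower. Slow skeletal Tnnt1 was 7.96-fold lower and fast skeletal Tnnt3 5.78-fold lower. No troponin C or troponin I gene passed the test, and Tnni3 was too dim to be tested. Of the 12 probe sets, 9 had a mean above the filter on dim signals (a log2 mean of 6.82, a signal of about 87.6) and were tested with limma. At an adjusted p of 0.05, 4 of these 9 were lower and 0 were higher in the double-positive arrays, against a background of 2.42% lower and 1.01% higher (3.42% in all) among 27022 probe sets tested. At an unadjusted p under 0.05, 6 were lower and 0 higher, against 8.28% lower and 5.35% higher of all probe sets tested, and 1 of the 6 (Tnni2 1438609_x_at) was above the filter only through its single-positive signal. In 6 of the 9 the groups did not overlap and the double-positive arrays were the lower ones, a pattern that 10.1% of all probe sets tested showed, with 8.57% showing the opposite one. Fitted by gene on the brightest probe set, 3 of 7 troponin genes were lower and 0 higher, where 4.38% of 13464 genes were lower and 1.98% higher. Leaving out 1 array in turn gave 3 or 4 lower calls, the loss being Tnnt1.

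**Figure D1:**
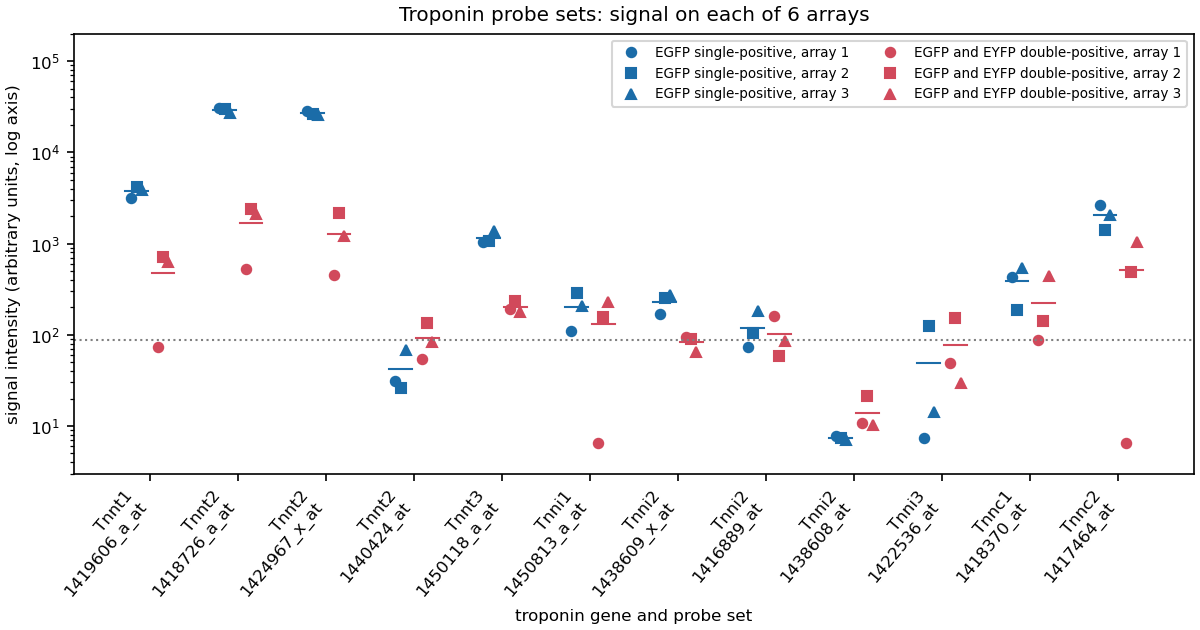
Signal intensity (vertical, arbitrary units on a log axis) of each of the 12 troponin probe sets (horizontal) on the 6 arrays. Symbols mark the array number, blue the EGFP single-positive and red the double-positive arrays, horizontal bars the group means and the dotted line a signal of 87.6, the level of the filter on the mean. The bright Tnnt2 probe sets, Tnnt1, Tnnt3, Tnnc2 and Tnni2 1438609_x_at show no overlap between the groups, with the double-positive arrays lower. Tnni2 1438608_at, below the filter, shows no overlap with the double-positive arrays higher. Double-positive array 1 is at 6.5 for Tnnc2 and Tnni1.

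The stretches before the annotated start of the 3 genes with the most negative differences (Tnnt2, Tnnt1 and Tnnc2), and of Tnnc1 as the other troponin C gene, are shown because the former were lower on every double-positive array than on any single-positive array. They come from a set of promoter windows of RefSeq genes on build GRCm38.p6, and each holds the 250 bases before the start, written in the gene's direction. The set used here had windows for 6 of the 8 genes and none for Tnnt3 and Tnni2. For Tnnt2, the first of its annotated starts is shown. Capitals mark matches to 5 motifs searched on both strands: the E-box CANNTG, bound by myogenic factors among others, the MCAT element CATTCC, bound by TEAD factors, the TATA box TATAAA, the MEF2 site and the CArG box, the element of serum response factor.
Tnnt2, chr1:135836084-135836333, plus strand: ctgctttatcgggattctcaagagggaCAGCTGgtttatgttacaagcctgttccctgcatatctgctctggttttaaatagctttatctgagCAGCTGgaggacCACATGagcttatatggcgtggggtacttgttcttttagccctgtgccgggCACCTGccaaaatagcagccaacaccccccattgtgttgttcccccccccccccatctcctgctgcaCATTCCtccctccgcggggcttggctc
Tnnt1, chr7:4515976-4516225, minus strand: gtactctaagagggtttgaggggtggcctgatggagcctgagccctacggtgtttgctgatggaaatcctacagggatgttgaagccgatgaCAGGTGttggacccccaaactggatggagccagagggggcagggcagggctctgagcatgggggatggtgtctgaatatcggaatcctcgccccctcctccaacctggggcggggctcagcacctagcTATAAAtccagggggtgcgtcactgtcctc
Tnnc2, chr2:164779735-164779984, minus strand: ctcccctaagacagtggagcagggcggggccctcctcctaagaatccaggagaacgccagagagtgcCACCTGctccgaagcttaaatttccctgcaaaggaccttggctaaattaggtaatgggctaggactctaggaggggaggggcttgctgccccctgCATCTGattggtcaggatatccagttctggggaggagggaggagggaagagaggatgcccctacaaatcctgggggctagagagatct
Tnnc1, chr14:31208062-31208311, plus strand: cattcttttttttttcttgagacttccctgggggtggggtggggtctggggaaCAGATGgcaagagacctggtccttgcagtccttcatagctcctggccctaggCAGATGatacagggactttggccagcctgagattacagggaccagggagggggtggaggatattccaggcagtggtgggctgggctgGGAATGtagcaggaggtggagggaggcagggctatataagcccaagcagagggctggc
Tnnt2 held 4 E-boxes and an MCAT element 27 to 22 bases before the start. Tnnt1 held an E-box and a TATA box 30 to 25 bases before the start, Tnnc2 held 2 E-boxes, and Tnnc1 held 2 E-boxes and an MCAT element on the opposite strand, 58 to 53 bases before the start. None of the 8 windows of the 6 genes held a full match to the MEF2 site or the CArG box, and partial matches were not searched. Among 32851 windows of the same length, 66.2% held an E-box, 12.6% an MCAT element, 12.4% a TATA box, 2.92% a MEF2 site and 1.47% a CArG box. No matches of different motifs overlapped in the windows shown. A match is a description of the letters and not of binding.

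Tnnt2 encodes the troponin T of heart and of embryonic striated muscle. On 1418726_a_at, a probe set that matches several transcripts of the gene, the single-positive signals were 30619, 29936 and 26879, and the double-positive signals were 531, 2389 and 2085. The groups did not overlap, and the lowest single-positive value was well above the highest double-positive one. The log2 difference was -4.36 (SE 0.48, 95% interval -5.46 to -3.27, limma adjusted p = 0.00204). Its fall was the 33rd most negative of 27022 differences.

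The next Tnnt2 probe set, 1424967_x_at, whose suffix marks probes that can match other transcripts, gave single-positive signals of 28721, 26323 and 25669 and double-positive signals of 450, 2170 and 1198. Its log2 difference was -4.63 (SE 0.47, limma adjusted p = 0.00143), the 22nd most negative of all. The third, 1440424_at, was dim throughout, with 31.0, 26.4 and 67.7 in single-positive and 54.0, 135.9 and 83.8 in double-positive arrays. Its groups overlapped, and its mean lay below the filter. Fitted without that filter its log2 difference was 0.79 (SE 0.46, adjusted p = 0.635). The Tnnt2 fall therefore rests on 2 of its 3 probe sets, and the mean over all 3 had a log2 difference of -2.74 (adjusted p = 0.00497).

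Tnnt1, the slow skeletal troponin T, had single-positive signals of 3155, 4219 and 3915 and double-positive signals of 73.0, 715 and 631. Double-positive array 1 was below the level of the filter, and the other double-positive arrays were still below every single-positive array. The log2 difference was -3.38 (SE 0.69, 95% interval -4.93 to -1.82, limma adjusted p = 0.0313). The call was lost without single-positive array 1, 2 or 3 (adjusted p = 0.0848, 0.131 and 0.119), with no filter on dim probe sets (0.0579) and with no variance trend (0.0851), while without double-positive array 1 the difference was -2.43 (adjusted p = 0.00902).

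Tnnt3, the fast skeletal troponin T, had single-positive signals of 1051, 1071 and 1358 and double-positive signals of 193, 233 and 176. Both groups were tight, with means of 1160 ± 172 and 201 ± 29.2 (SD, n = 3 each). The log2 difference was -2.39 (SE 0.35, 95% interval -3.17 to -1.61, limma adjusted p = 0.00657), and it lay between -2.50 and -2.09 under every one of 15 alternatives.

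Tnnc2, the calcium-binding subunit of fast skeletal muscle, had single-positive signals of 2635, 1427 and 2045 and double-positive signals of 6.5, 489 and 1040. The groups did not overlap, but the double-positive arrays spread over a range from a dim to a middling signal. The log2 difference was -2.95 with a wide error (SE 1.08, 95% interval -5.40 to -0.51), and the limma adjusted p of 0.248 did not pass. Without double-positive array 1 the difference was -1.43 (adjusted p = 0.218), so that its size moved with that array. Array weights gave -4.42 (adjusted p = 0.0372).

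Tnnc1, the calcium-binding subunit shared by heart and slow skeletal muscle, had 430, 188 and 544 in single-positive and 87.7, 141 and 437 in double-positive arrays. The groups overlapped. The log2 difference was -0.89 (SE 0.61, 95% interval -2.27 to 0.49, limma adjusted p = 0.629).

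The inhibitory subunits gave no signal above 287 on any array. Tnni1, the slow skeletal form, had 111, 287 and 208 in single-positive and 6.5, 155 and 231 in double-positive arrays, which overlapped (log2 difference -0.92, SE 0.76, limma adjusted p = 0.712). Without double-positive array 1 its difference was 0.00. Tnni3, the cardiac form, had 7.3, 124.9 and 14.1 in single-positive and 49.5, 151.7 and 29.7 in double-positive arrays, and its mean was below the filter. Its log2 difference without the filter was 0.64 (SE 0.68, adjusted p = 0.836). No difference in cardiac troponin I was detectable at these signals, and neither group held one above 152.

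Tnni2, the fast skeletal form, had 3 probe sets that did not behave alike. On 1438609_x_at the signals were 167, 251 and 270 in single-positive and 95.4, 89.8 and 64.1 in double-positive arrays, with no overlap (log2 difference -1.22, SE 0.41, limma adjusted p = 0.20). It is the single tested member whose double-positive mean was below the filter. On 1416889_at the signals were 73.1, 106 and 180 against 162, 59.2 and 85.2 (log2 difference -0.20, SE 0.49, adjusted p = 0.926). On 1438608_at no array was above 21.2, and the double-positive values of 10.7, 21.2 and 10.2 lay above the single-positive values of 7.7, 7.4 and 7.1. This probe set and 1438609_x_at were designed on the same transcript sequence per the platform annotation. Its log2 difference without the filter was 0.26 (adjusted p = 0.782).

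**Figure D2:**
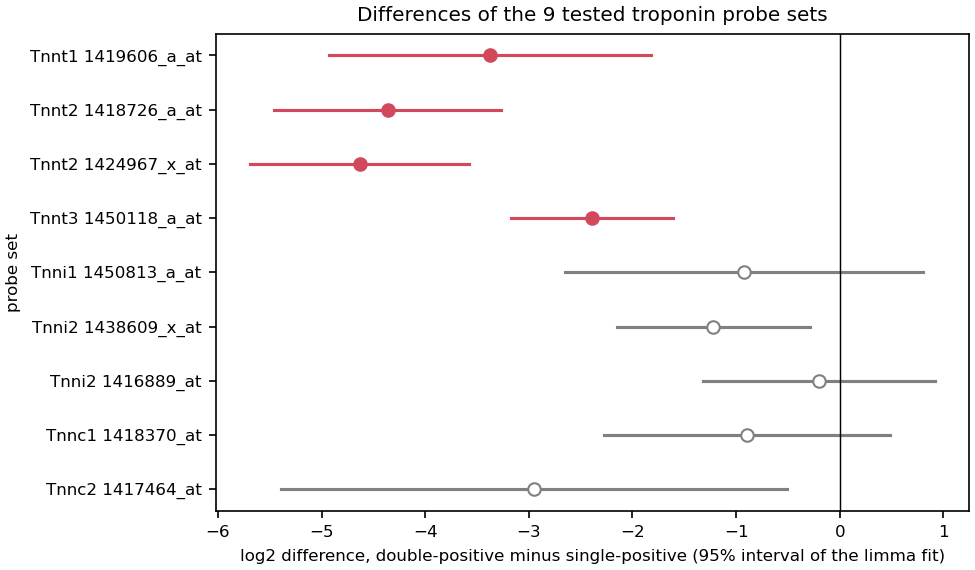
Log2 difference between double-positive and single-positive arrays (horizontal) for the 9 troponin probe sets tested (vertical), with 95% intervals of the limma fit. Filled red points passed an adjusted p of 0.05 and open grey points did not; the 4 red points are the troponin T probe sets, from -2.39 to -4.63.

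**Figure D3:**
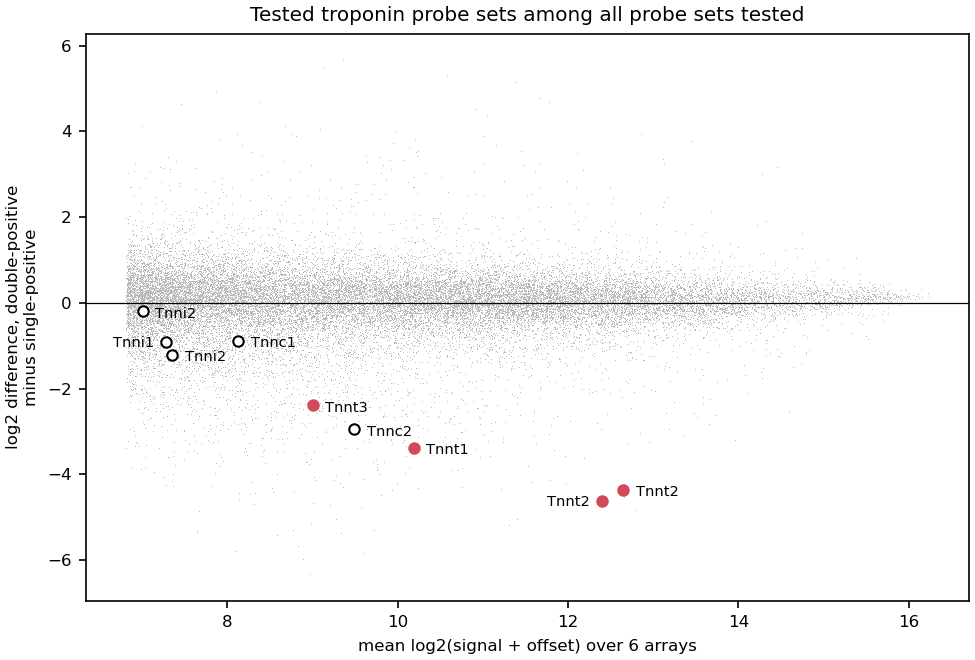
Log2 difference (vertical) against mean log2 signal over the 6 arrays (horizontal) for all 27022 probe sets tested (grey) and the 9 troponin probe sets (circles, red where the adjusted p was under 0.05). The Tnnt2 probe sets lie at means of 12.4 and 12.6 with differences of -4.63 and -4.36, the 22nd and 33rd most negative of all.

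Differences between the subunit genes were compared in 7 pairs on the brightest probe set of each gene. The quantity was the per-array log2 difference between the genes, tested with exact two-sided permutation over arrays, where 3 against 3 allows no p below 0.1. The change of Tnnt2 minus that of Tnnt1 was -0.99 (SE 0.31), and minus that of Tnnt3 -1.97 (SE 0.68), each without overlap and each at the smallest p of 0.1 (exact permutation, adjusted p = 0.233). The change of Tnnc2 minus that of Tnnc1 was -2.06 (SE 1.13), also at an exact permutation p of 0.1 and without overlap. Between Tnnt1 and Tnnt3 the difference was -0.985 (SE 0.94, exact permutation p = 0.5), between Tnnt1 and Tnnc2 -0.42 (SE 0.77, p = 0.7), between Tnnt2 and Tnnc2 -1.41 (SE 0.95, p = 0.3), and between Tnni2 and Tnni1 -0.30 (SE 1.06, p = 0.9). None of these can pass a threshold of 0.05 in this design.

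Over the 6 arrays the log2 signals of Tnnt2 and Tnnt1 followed each other with a Pearson r of 0.975, those of the bright Tnnt2 probe sets with 0.996, and those of Tnnt1 and Tnnc2 with 0.929. These values mostly restate the gap between the groups, which the arrays share. Within the double-positive group, array 1 was the lowest of the 3 for 6 of the 9 tested troponin probe sets (both Tnnt2 probe sets, Tnnt1, Tnnc2, Tnnc1 and Tnni1). Without that array the Tnnt2 differences were -3.69 and -4.04 (adjusted p = 0.00077 and 0.00155).

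The genes whose pattern over the 6 arrays was most like a troponin T gene were found among 12786 genes by Pearson's r of log2 signal. For Tnnt2 they were Myh11, the myosin heavy chain of smooth muscle (r = 0.998), Srek1ip1 (0.998), Mfsd6 (0.998), Rab3ip (0.996) and Myom1, the M-band protein myomesin (0.996). Myh11 fell from 48951 ± 5940 to 5773 ± 2938 (SD, n = 3 each, log2 difference -3.23, adjusted p = 0.00231). For Tnnt1 they were Icam2, an adhesion molecule of endothelium and leukocytes (r = 0.999), Reep1 (0.998), Pdlim3, an actinin-associated protein of muscle (0.996), Adcy5, an adenylyl cyclase (0.995), and Pgm5, a protein of muscle adhesion sites (0.994). For Tnnt3 they were the desmosomal protein gene Perp (0.997), Ppil6 (0.996), Ripk4, a kinase of epithelial differentiation (0.995), Cbr2 (0.995) and Ror1 (0.994). With 6 arrays in 2 groups such values are high for every gene with a like gap between the groups, and they say nothing of shared control.

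Troponin T and troponin I genes lie in pairs in the mouse genome. Genes next to them in order were read as a description. By gene order on assembly GRCm38.p6, Tnni3 is the protein-coding gene next to Tnnt1 on chromosome 7, Tnni2 and Tnnt3 are separated by Lsp1 on the same chromosome, and Tnni1 and Tnnt2 by Lad1 on chromosome 1. In each of the 3 neighbourhoods the troponin T gene fell and the troponin I gene did not pass or was too dim to test. The troponin I genes had little room to show a fall. Their brightest probe sets had single-positive means of 202 (Tnni1), 229 (Tnni2) and 48.8 (Tnni3). Tnni2 1438609_x_at was lower without overlap (limma adjusted p = 0.20). A difference between troponin T and troponin I genes was not tested. Lsp1, a leukocyte actin-binding protein, had a log2 difference of 0.55 (adjusted p = 0.651), and Lad1, a basement membrane protein, one of -2.29 (adjusted p = 0.0360). Lad1 was above the filter only through its single-positive signal, with double-positive signals of 29.9, 94.8 and 104.7. Mrpl23 on the other side of Tnnt3 had -0.03, Ppp1r12c beside Tnnt1 had -0.51, and neither passed. Beyond Tnni1, Phlda3 had 0.80 and did not pass, and Csrp1, a muscle LIM protein, fell (-2.09, adjusted p = 0.00568). Of the genes nearest to Tnnc2 on chromosome 2, Ube2c had 0.66 and Snx21 had 0.79, and neither passed. Beside Tnnc1 on chromosome 14, Nisch had 0.12 and did not pass, and Stab1, a scavenger receptor of macrophages and endothelium, fell (-2.75, adjusted p = 0.00416). On its other side, Sema3g, a semaphorin below the filter, had 107, 139 and 261 in single-positive and 23.9, 17.5 and 78.8 in double-positive arrays, with no overlap, and Phf7 had -0.28 and did not pass.

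Genes for the partners of troponin on the actin filament fell in part. Of 18 genes in this list (actins, tropomyosins, nebulins, tropomodulins and leiomodins), 15 were tested on their brightest probe set, 5 fell, 0 rose and 10 did not pass, with a median log2 difference of -0.59 against 0.02 over the brightest probe sets of all genes tested, of which 3.3% were lower and 1.43% higher. Acta1, skeletal alpha actin, fell from 38354 ± 5950 to 1493 ± 827, and Actc1, cardiac alpha actin, from 44525 ± 3013 to 2900 ± 3132 (SD, n = 3 each, log2 differences -4.85 and -4.54, limma adjusted p = 0.00101 and 0.00636). Lmod1, a leiomodin of smooth muscle, had a log2 difference of -3.36 (adjusted p = 0.00205) and Actg2 one of -2.54 (adjusted p = 0.00101), and both fell. Tpm1, a tropomyosin, fell by 1.53 on the log2 scale (SE 0.21, adjusted p = 0.00512). The other tropomyosins, named after their values were seen, had log2 differences of -0.53 (Tpm2), 0.14 (Tpm3) and 0.24 (Tpm4), none of which passed. Tpm2 had mean signals of 54130 and 37873, and Tpm4 of 36966 and 43781.

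Of 33 listed genes of the striated thick filament, M-band and Z-disc, 23 were tested, 6 fell and 0 rose, with a median of -0.53. Of all genes read in this way 3.3% were lower and 1.43% higher, as for the lists that follow. The genes that fell included Fhod3, a sarcomeric formin (log2 difference -5.20), Ldb3, a Z-disc protein (-4.39), Myom1 (-3.27), the atrial and embryonic light chain Myl4 (-3.09) and Myh2, a fast myosin heavy chain (-2.88). The sixth, the cardiac heavy chain Myh6 (-2.76, adjusted p = 0.0477), was above the filter only through its single-positive signal. Among genes of striated calcium handling and energy supply, 5 of 14 tested of 21 listed fell and 0 rose, with a median of -0.997. They were Trdn, triadin (-4.08), Ckm, muscle creatine kinase (-3.79), Pln, phospholamban (-3.33), and the calcium stores Casq1 and Casq2 (-3.24 and -2.98). Trdn and Pln were above the filter only through their single-positive signal. The count was 3 when array 1 or array 3 of the single-positive group was left out, with the filter at the 60th percentile and with no variance trend. Of 15 smooth muscle contractile genes tested of 18 listed, 10 fell and 0 rose, with a median of -1.64, led by the intermediate filament genes Synm (-4.54) and Des (-3.26), calponin Cnn1 (-4.25), Myh11 (-3.23) and transgelin Tagln (-2.86). The smooth muscle count was 7 with no variance trend and without single-positive array 2 or 3. It was 8 with median centring and 11 with array weights.

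Markers of skeletal and cardiac muscle were read beside the troponins. Of 19 skeletal lineage genes 9 were tested and 0 passed with limma, 0 of them at an unadjusted p under 0.05. Over the brightest probe sets of all genes tested, 3.3% were lower and 1.43% higher at the adjusted p, and 9.98% lower and 6.74% higher at the unadjusted one, so that a count of 0 among so few genes is near the background. Their summed signal over 18 genes was 2904 to 5512 in single-positive and 2767 to 4341 in double-positive arrays (exact permutation p = 0.3). With 3 against 3 arrays that test allows no p below 0.1, the value it gave for the summed signal of every other list. It therefore cannot decide whether the sums differ. Of these 18 genes, 13 had groups that overlapped. The satellite cell gene Pax7 was lower without overlap in the double-positive arrays, at 4.0, 188 and 334 against 3.9, 3.8 and 3.0. The other 4 were higher without overlap, among them the myogenic factor Myf5 (18.7, 25.2 and 18.6 against 158.6, 251.7 and 39.4) and the fusion gene Mymk (9.4, 11.2 and 20.8 against 51.9, 89.2 and 70.4), and of these 5 genes only Chrnb1 was above the filter. Among all probe sets above the filter, 10.1% were lower and 8.57% higher in the double-positive arrays without overlap. Myog, the myogenic factor of differentiating skeletal muscle, had 34.8, 1405 and 985 in single-positive and 38.4, 448 and 365 in double-positive arrays. Myh3, embryonic skeletal myosin, had 13.1, 2177 and 2898 against 31.0, 766 and 5788, and Pax7, Myf5, Mymk, Chrnb1, Myog and Myh3 were chosen after their values were seen. Array 1 was thus low in both groups for Myog and Myh3. Among the 9 tested troponin probe sets, array 1 was the lowest of both groups for Tnnt1 and Tnni1. In the single-positive group it was the lowest for 5 of the 9 (Tnnt1, Tnnt3, Tnni1 and both Tnni2 probe sets) and the highest for 3 (both Tnnt2 probe sets and Tnnc2). In the double-positive group it was the lowest for 6, Tnnt2 and Tnnc2 among them. The part of skeletal muscle cells in the troponin signals was not tested.

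Of 13 cardiac lineage genes 10 were tested, Popdc2, a Popeye membrane protein of muscle, fell (log2 difference -3.89, limma adjusted p = 0.00113) and Tbx20, a T-box factor, rose (1.32, adjusted p = 0.0201), with a median of 0.24. The summed signal of the 13 genes was higher without overlap in double-positive arrays, at 20526 to 22581 in single-positive and 26999 to 39451 in double-positive arrays. The Tbx20 call was lost without single-positive array 2, without single-positive array 3, without double-positive array 1 and with no variance trend. Of the 13 genes, 4 were lower and 2 higher in the double-positive arrays without overlap, and 7 overlapped. Of all probe sets tested, 10.1% were lower and 8.57% higher without overlap, a share that leaves out genes below the filter. Chosen after their values were seen, the heart factor Tbx5 had 45.5, 24.4 and 34.9 in single-positive and 189.2, 439.0 and 150.2 in double-positive arrays (log2 difference 2.13, adjusted p = 0.0532), Nkx2-5 had a log2 difference of -0.60 (adjusted p = 0.665), and Nppa, an atrial hormone below the filter, had 111 to 310 and 15.4 to 53.0. Tbx5 was above the filter only through its double-positive signal. Among 14 transcription regulators of muscle genes 13 were tested and 0 passed with limma, 3 being lower and 0 higher at an unadjusted p under 0.05, where 9.98% and 6.74% of all genes were, with a median of -0.14. Also chosen after their values were seen, Mef2c, Tead1 and Myocd had log2 differences of -1.81 (adjusted p = 0.0718), -0.81 (adjusted p = 0.0769) and -2.55 (adjusted p = 0.284), and Srf had -0.14. Without double-positive array 3, 2 regulators were lower.

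Markers of other cell types moved in the same direction as the troponin T genes. Over the brightest probe sets of all genes tested, 3.3% were lower and 1.43% higher. Of the leukocyte markers 11 of 11 tested fell, and their summed signal was 91814 to 131157 in single-positive and 12510 to 20343 in double-positive arrays. Those of smallest p were Mrc1 (log2 difference -2.96), Cd14 (-2.66), Laptm5 (-3.07), C1qb (-3.31) and Fcgr3 (-2.83). Of the endothelium markers 6 of 11 fell (39211 to 48257 against 6903 to 11637), of the urothelium markers 8 of 12 (28035 to 41758 against 3625 to 7903), and of nerve and Schwann cell markers 5 of 8 tested (11666 to 15506 against 1558 to 2725). When 1 array was left out, the leukocyte count was 8 to 11 and the urothelium count 7 to 8. The endothelium count was 3 without single-positive array 1 or 2, and the nerve count was 3 when array 1 or 3 of the single-positive group or array 1 of the double-positive group was left out, and with the filter at the 60th percentile. None of these markers rose. The endothelial genes of smallest p were Lyve1 (-3.30), Cdh5 (-2.41), Sox17 (-3.99), Cldn5 (-2.28) and Esam (-1.70). The urothelial ones were Perp (-3.60), Shh (-4.68), Krt15 (-3.35), Upk3a (-2.75) and Upk1b (-3.17), and the nerve and Schwann cell genes that passed were Mbp (-4.80), Erbb3 (-4.33), Snap25 (-4.18), L1cam (-2.16) and Uchl1 (-1.74). Of the genes called in these 4 lists, Snap25, Krt15 and Shh were above the filter only through their single-positive signal. The summed signal of the 15 smooth muscle genes was 386993 to 475600 against 208355 to 225485. The ratio of 3' to 5' signal of the Actb control, a sign of RNA quality, overlapped between the groups, at 3.23 to 5.97 in single-positive and 2.78 to 8.02 in double-positive arrays. That of Gapdh was 15.2, 11.8 and 20.6 in single-positive and 17.2, 17.2 and 23.9 in double-positive arrays, which overlapped with a higher double-positive range. The part of other cell types in the troponin T result was not tested.

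**Figure D4:**
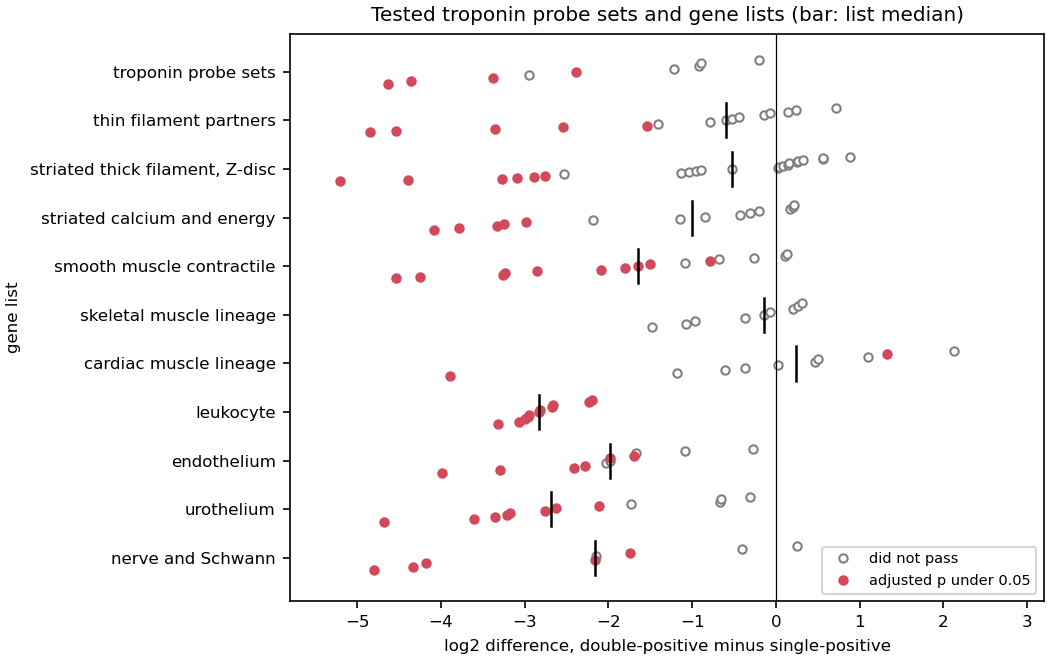
Log2 difference (horizontal) of each tested troponin probe set and of each tested member of 10 gene lists (vertical), with red points past an adjusted p of 0.05, open points that did not pass and a bar at the median of each list. Leukocyte markers lie between -3.32 and -2.19, skeletal lineage genes hold no red point, and the 4 troponin T points lie from -4.63 to -2.39.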

How the data were processed

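Per the labels' protocols, RNeasy columns yielded RNA of the sorted cells, which went through 2 rounds of amplification and biotin labelling for Affymetrix MOE430 arrays. Amplification of this kind primes at the 3' end, and signal can be lost from probe sets upstream. The deposited values are linear signal intensity per probe set. Per the submitters' processing notes GCOS was used, with an algorithm and version not given in the sources used here. All 6 arrays had a 2% trimmed mean of 1500.01, a common scaling under which differences in total RNA are lost.

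Groups were taken from the titles. Of 45037 probe sets, 34945 had 1 gene symbol. The log2 of signal plus 25.042 (the 20th percentile of all values) was used, with no rescaling, as array medians were within 1.36-fold. Probe sets above the 40th percentile of means (27022) were fitted with limma 3.58.1 in R 4.3.3 (lmFit, eBayes with a variance trend, two-sided) and Benjamini-Hochberg adjustment over all of them. The procedure was tested on simulated data. All troponin probe sets were named. Named too were, for each troponin gene that passed, the 5 genes most alike in pattern, and of each gene list the members past the threshold or, above 5 of them, those of smallest p. List genes were read on their brightest probe set. The members and lists were chosen with earlier results of these data known. Alternatives covered normalization, offset, filter, variance model, array weights, the replicate block, gene-level summaries and leaving out each array.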

Additional observations from a re-analysis of the deposited data

How the results depend on the processing

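The lower calls of both bright Tnnt2 probe sets and of Tnnt3 kept their direction and stayed past the threshold under all 15 alternatives, with log2 differences from -5.01 to -3.69, from -5.20 to -4.04 and from -2.50 to -2.09. Tnnt1 stayed negative (-4.31 to -2.43) but did not pass under 5 of the 15, as given beside its values. Troponin probe sets called lower numbered 5 with array weights, which added Tnnc2, and 3 to 4 when 1 array was left out, and troponin probe sets called higher numbered 0 under every alternative. The number of troponin genes called was 3 in the fit by probe set, 3 with the brightest probe set of each gene and 3 with the mean over probe sets, with 7 genes tested in the fit of the brightest probe sets. All probe sets called numbered 925. They numbered 1639 with array weights, and 414 to 1123 when 1 array was left out. The Tnni2 probe set 1416889_at, near 0 throughout and never past the threshold, had a log2 difference of 0.06 (0.056) with array weights and -0.52 to 0.09 (0.086) when 1 array was left out. With the replicate number of the titles as a replicate block, 897 probe sets and the same 4 troponin probe sets were called. Deviations of same-numbered arrays had correlations of 0.092, 0.025 and -0.065, and the labels do not say that numbers pair samples. Probe sets near the filter, such as those of Tnni1, Tnni2 and Tnni3, have little room to show a fall.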
